A study of Mus musculus with 5 samples.

Results

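The genes described here are 10 markers of the mononuclear phagocyte lineage, taken from 18820 genes measured in mouse liver after treatment with CSF1-Fc or PBS. *Adgre1*, *Cd68*, *Mpeg1* and *Aif1*, which are shared by most macrophages, were grouped here with the lysozyme gene *Lyz1*. *Plac8*, *Lst1* and *Cd14* were grouped as weighted toward monocytes, and *Folr2* and *Ms4a7* as weighted toward resident tissue macrophages. The groups were assigned with earlier results of these data known and were not tested in these livers. The members were selected on their levels in this same comparison, so their values below are a description and carry no test. All 10 were present, each on 1 transcript row that names it alone. The tissue was whole liver of adult C57BL/6 mice, with 3 mice that had received CSF1-Fc, a fusion of pig colony-stimulating factor 1 to the Fc part of pig IgG, and 2 mice that had received PBS. All mice were injected under the skin on 4 consecutive days and culled on day 5, and each liver was hybridized to 1 Affymetrix Mouse Gene 1.1 ST array. With 3 arrays against 2 an exact permutation test cannot reach a p below 0.1, and precision is limited by how few arrays there are. The labels number the mice within a group and do not give their sex or litter.

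CSF1 is the growth factor that monocytes and most tissue macrophages need for survival and proliferation, and it acts through the receptor tyrosine kinase encoded by *Csf1r*. The liver holds Kupffer cells, resident macrophages attached to the sinusoid wall that clear particles, bacteria and old red cells from the blood. Blood monocytes are of a classical kind, which carries Ly6C and the chemokine receptor CCR2, and a non-classical kind, which patrols the vessel wall. Both can enter the liver, where classical monocytes can acquire Kupffer cell features. In whole tissue, more cells of a type and more RNA per cell of that type cannot be told apart. The paper reports more monocytes and neutrophils in the blood of treated mice, and that tissue put into RNALater came from mice not perfused. The part of blood cells left in the liver vessels was not tested.

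All values are log2 normalized intensities, on which a difference of 1 is a doubling, and fold changes are means of CSF1-Fc arrays minus means of PBS arrays with the standard error from limma. The median intensity of an array lay between 4.96 and 5.05 on this scale in CSF1-Fc livers and between 5.00 and 5.01 in PBS livers. Across all genes, 8.34% were higher and 3.95% were lower in CSF1-Fc livers at an adjusted p under 0.05 from limma, and in 18.2% all 3 CSF1-Fc values lay above both PBS values. Correlations of log2 values were 0.983 to 0.990 among CSF1-Fc arrays, 0.991 between the PBS arrays and 0.960 to 0.973 across the groups, so that every correlation within a group lay above those across groups.

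Every one of the 10 markers was higher in the 3 CSF1-Fc livers than in both PBS livers, and the sizes of the rises differed widely. The median log2 fold change of the markers was 2.29, against -0.078 over all genes, and the fold changes spanned 3.61 log2 units between *Plac8* and *Ms4a7*. Since the markers were chosen on this contrast, nothing is read from the 10 of 10 beside the 18.2% of all genes.

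Among the pan-macrophage markers, *Adgre1* encodes the EGF-TM7 adhesion receptor by which mouse macrophages are usually recognised. *Adgre1* (row 10446282) was at 11.18, 11.03 and 11.06 in CSF1-Fc livers and at 8.44 and 8.50 in PBS livers. It had the tightest replicates of the set, with a range of 0.15 among the CSF1-Fc livers, and the groups were 2.53 apart at their nearest values. Its log2 fold change was 2.62 (standard error 0.13), a factor of 6.15.

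*Cd68* encodes macrosialin, a heavily glycosylated protein of the lysosome membrane. *Cd68* (row 10387536) was at 11.36, 11.54 and 11.18 in CSF1-Fc livers and at 8.72 and 8.26 in PBS livers. CSF1-Fc replicate 2 was the highest liver and PBS replicate 2 the lowest, with no overlap of the groups. The log2 fold change was 2.87 (standard error 0.19), a factor of 7.33.

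*Mpeg1* encodes perforin-2, a pore-forming protein of phagocytic vesicles. *Mpeg1* (row 10461721) was at 10.69, 10.52 and 10.68 in CSF1-Fc livers and at 8.96 and 8.44 in PBS livers. The CSF1-Fc livers lay within 0.16 of each other, closer together than the PBS livers, which differed by 0.52. The log2 fold change was 1.94 (standard error 0.18), a factor of 3.83 and the smallest among the 4 brighter pan-macrophage markers.

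*Aif1* encodes Iba1, a calcium-binding protein of the actin cytoskeleton that is widely stained to show macrophages and microglia. *Aif1* (row 10450484) was at 8.45, 8.91 and 8.48 in CSF1-Fc livers and at 6.22 and 5.98 in PBS livers. CSF1-Fc replicate 2 was the highest of the 3 treated livers, and the groups did not overlap. Its log2 fold change was 2.51 (standard error 0.19), close to that of *Adgre1*.

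*Lyz1* encodes a lysozyme that in the mouse is best known from Paneth cells, while its neighbour *Lyz2* encodes the lysozyme of macrophages and neutrophils. *Lyz1* (row 10372652) was at 6.29, 6.37 and 5.93 in CSF1-Fc livers and at 4.74 and 5.05 in PBS livers. It was dim throughout, with PBS values near the median of the array, and the groups were 0.89 apart at their nearest values. The log2 fold change was 1.30 (standard error 0.18), a factor of 2.47. The myeloid paralog *Lyz2* was at 12.24, 12.24 and 12.16 in CSF1-Fc livers and at 10.31 and 10.61 in PBS livers, with a log2 fold change of 1.75 (standard error 0.14, limma adjusted p = 0.000841). Both lysozymes were higher in PBS replicate 2 than in PBS replicate 1, and the 2 transcripts are similar in sequence, so a share of the *Lyz1* signal that comes from *Lyz2* RNA was not tested. None of 5 other Paneth cell genes passed the test in either direction, and none did at an unadjusted p under 0.05 from limma. Of these 5, 3 were below a log2 intensity of 5 on every array and 4 in both PBS livers. The cell source of the *Lyz1* signal was not tested.

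**Figure D1:**
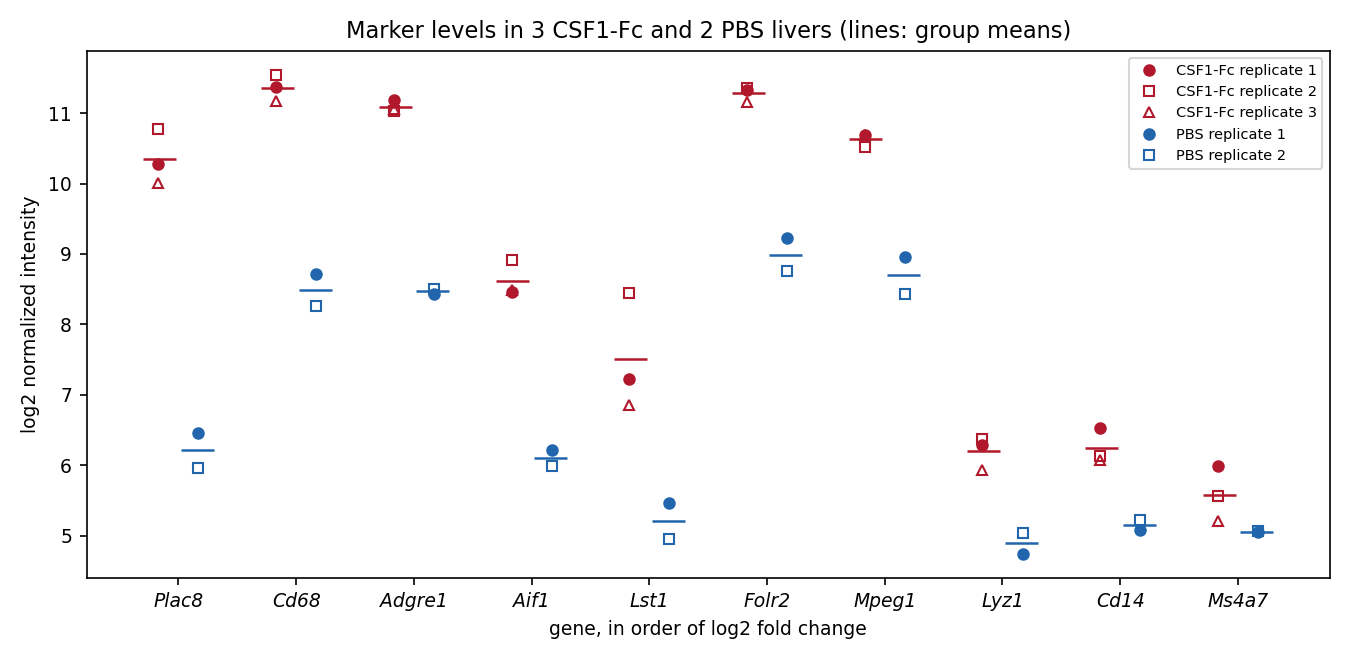
Log2 normalized intensity of the 10 markers (vertical axis) for each gene on the horizontal axis, ordered by fold change. Red symbols are the 3 CSF1-Fc livers, blue symbols the 2 PBS livers, and short lines the group means. The red and blue symbols are widest apart for *Plac8*, nearest for *Ms4a7*, where the lowest CSF1-Fc liver is 0.14 above the higher PBS liver, and the CSF1-Fc livers are most spread for *Lst1*.

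The monocyte-weighted markers held both the largest and nearly the smallest rises. *Plac8* encodes a small cysteine-rich protein that is abundant in classical monocytes and is also found in neutrophils, plasmacytoid dendritic cells and activated lymphocytes. *Plac8* (row 10531724) was at 10.27, 10.77 and 10.01 in CSF1-Fc livers and at 6.46 and 5.96 in PBS livers. The groups were 3.55 apart at their nearest values, the widest gap of the set. The log2 fold change was 4.14 (standard error 0.26), a factor of 17.6.

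*Lst1* encodes a small membrane adaptor of leukocytes, better expressed in monocytes, dendritic cells and neutrophils than in lymphocytes. *Lst1* (row 10450496) was at 7.22, 8.44 and 6.86 in CSF1-Fc livers and at 5.47 and 4.95 in PBS livers. The treated livers were far from alike, with replicate 2 above the others and a range of 1.58, yet all lay above the PBS livers. The log2 fold change was 2.30 (standard error 0.46), the least precise of the set, and it was 1.83 with CSF1-Fc replicate 2 left out.

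*Cd14* encodes the co-receptor that hands bacterial lipopolysaccharide to Toll-like receptor 4. *Cd14* (row 10458382) was at 6.53, 6.14 and 6.07 in CSF1-Fc livers and at 5.09 and 5.23 in PBS livers. These are dim values, and CSF1-Fc replicate 1 was the highest. Its log2 fold change was 1.09 (standard error 0.18), a factor of 2.13, well under those of *Plac8* and *Lst1*.

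Of the markers weighted toward resident macrophages, *Folr2* encodes folate receptor beta, a membrane-anchored receptor of resident macrophages in many organs. *Folr2* (row 10566026) was at 11.32, 11.35 and 11.15 in CSF1-Fc livers and at 9.22 and 8.76 in PBS livers. The treated livers lay within 0.20 of each other and the groups were 1.93 apart at their nearest values. The log2 fold change was 2.29 (standard error 0.18), a factor of 4.87.

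*Ms4a7* encodes a membrane protein of the MS4A family that crosses the membrane several times and is found on macrophages. *Ms4a7* (row 10466200) was at 5.98, 5.56 and 5.21 in CSF1-Fc livers and at 5.05 and 5.07 in PBS livers. The PBS values sat at the array median, and the lowest treated liver, replicate 3, was only 0.14 above the higher PBS liver. Its log2 fold change was 0.52 (standard error 0.23), a factor of 1.44, and it ranged from 0.32 to 0.82 over 18 other settings of the fit, reaching 0.32 with CSF1-Fc replicate 1 left out.

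The replicates had no common order across the set. CSF1-Fc replicate 2 was the highest treated liver for 6 markers and replicate 1 for 4, while replicate 3 was the lowest for 7. PBS replicate 1 was above PBS replicate 2 for 6 markers, and replicate 2 was above replicate 1 for *Adgre1*, *Lyz1*, *Cd14* and *Ms4a7*.

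Ordered by size, the rises ran from *Plac8* through *Cd68*, *Adgre1*, *Aif1*, *Lst1*, *Folr2*, *Mpeg1*, *Lyz1* and *Cd14* to *Ms4a7*. Neighbours in this order are described by the log2 difference of the 2 genes within each array, in which the scale of the array cancels. The same values chose the markers and set the order, so whether these differences overlap between the groups is a description and no test. Of 9 neighbouring pairs, 3 had differences that did not overlap, *Plac8* above *Cd68* by 1.26, *Folr2* above *Mpeg1* by 0.35 and *Cd14* above *Ms4a7* by 0.57. Within the block between *Cd68* and *Folr2*, the fold change of *Cd68* was above those of *Aif1* and *Folr2* by 0.36 and 0.59 without overlap, and above that of *Adgre1* by 0.25 with overlap between the groups.

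**Figure D2:**
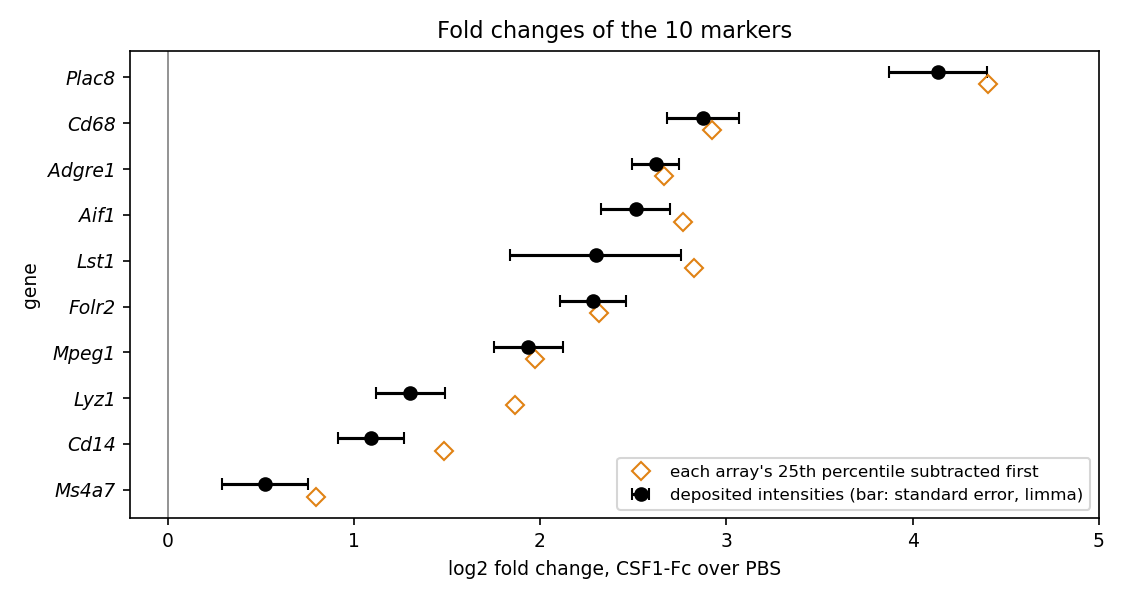
Log2 fold change, CSF1-Fc over PBS, of each marker (horizontal axis), with genes down the vertical axis in order of size. Black points and bars are the fold change and standard error from the deposited intensities, and open diamonds the fold change after subtraction of the 25th percentile of each array. The diamond lies farthest right of the point for the dim genes *Lyz1* and *Lst1*.

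Dim genes have compressed fold changes where a common background lies under the signal, and 4 of the markers, *Lst1*, *Lyz1*, *Cd14* and *Ms4a7*, were within 1 log2 unit of the array median in PBS livers. After the 25th percentile of each array was subtracted, an alternative added after the values were seen, the log2 fold changes were 4.41 for *Plac8*, 2.83 for *Lst1*, 1.86 for *Lyz1*, 1.48 for *Cd14* and 0.80 for *Ms4a7*. *Lst1* moved from the fifth place to the third in the order, ahead of *Aif1* and *Adgre1*, and *Plac8*, *Cd68*, *Aif1* and the 5 genes at the low end kept their places. The bright genes moved little, with 2.67 for *Adgre1* and 2.32 for *Folr2*.

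Set against *Adgre1* within the same array, the markers diverged in both directions. *Plac8* minus *Adgre1* was -0.91, -0.26 and -1.05 in CSF1-Fc livers and -1.97 and -2.54 in PBS livers. All 3 treated livers lay above both PBS livers, and the mean difference between the groups was 1.52, a description of the gene that had the largest fold change of the set. *Folr2* minus *Adgre1* was 0.14, 0.32 and 0.09 in CSF1-Fc livers and 0.79 and 0.26 in PBS livers. These values overlapped, and the rise of *Folr2* was below that of *Adgre1* by 0.34 on average, a difference of -0.070 with PBS replicate 1 left out and -0.60 with PBS replicate 2 left out.

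Between a monocyte-weighted and a resident-weighted marker, *Plac8* minus *Folr2* was -1.05, -0.59 and -1.14 in CSF1-Fc livers and -2.76 and -2.80 in PBS livers. The groups did not overlap, and the fold change of *Plac8* was 1.85 above that of *Folr2*. Of the monocyte-weighted genes, *Plac8* alone rose above *Folr2* without overlap. The fold change of *Cd14* was 1.195 below that of *Folr2*, without overlap, and that of *Lst1* was 0.014 above it, with overlap. Against the dim resident-weighted gene *Ms4a7*, *Plac8*, *Lst1* and *Cd14* all rose more, by 3.61, 1.775 and 0.57, without overlap. The fold change of *Cd14* was 1.53 below that of *Adgre1*, and *Lst1* minus *Adgre1* overlapped between the groups, with CSF1-Fc replicate 2 high. The fold changes of *Mpeg1*, *Lyz1* and *Ms4a7* were below that of *Adgre1* by 0.69, 1.32 and 2.10, without overlap. A difference of 2 log2 values from different rows has no meaning as a ratio of transcripts, and only its change between the groups is described.

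**Figure D3:**
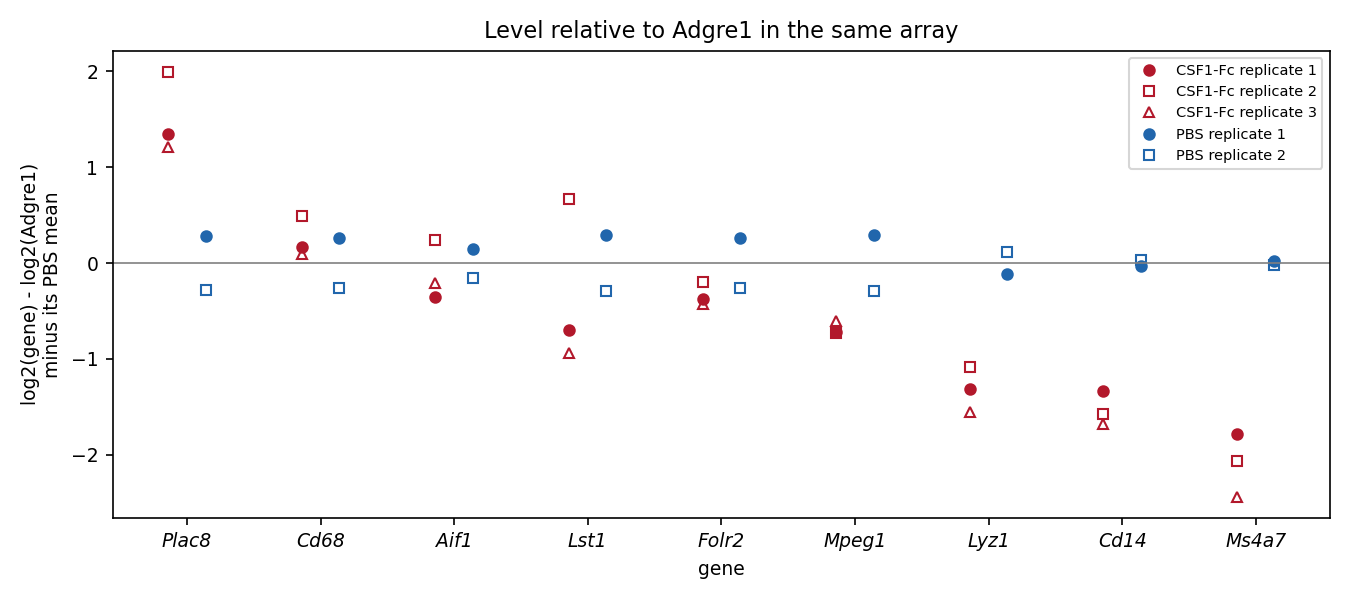
Log2 level of each of the other 9 markers minus that of *Adgre1* in the same array, less the mean of that difference in PBS livers (vertical axis), by gene (horizontal axis). Red symbols are CSF1-Fc livers and blue symbols PBS livers. *Plac8* lies above the blue points in every treated liver, *Mpeg1*, *Lyz1*, *Cd14* and *Ms4a7* lie below them, and *Cd68*, *Aif1*, *Lst1* and *Folr2* overlap.

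Genes outside the 10 markers rose across the same cell classes. These lists too were drawn up with earlier results of these data known, so their counts and medians describe the lists and are no independent evidence of a direction. Of 17 other pan-macrophage genes, 17 were higher and 0 lower by limma (0 lower at an unadjusted p under 0.05), against 8.34% and 3.95% of all genes, with a median log2 fold change of 2.56. *Csf1r*, the receptor for CSF1, was at 11.01, 10.68 and 11.10 in CSF1-Fc livers and at 8.94 and 9.06 in PBS livers. It rose by 1.93 (standard error 0.17, adjusted p = 0.00105), beside 2.62 for *Adgre1*, and the groups were clearly apart. The largest changes of this list were those of *Fcgr1*, the high-affinity IgG receptor, at 3.66 (standard error 0.18, adjusted p = 0.000357), *Spi1*, which encodes the myeloid transcription factor PU.1, at 3.33, *Lgals3*, which encodes galectin-3, at 3.24, and *Fcgr3*, another IgG receptor, at 3.12. Of the 17, 8 had a larger fold change than *Adgre1*. The list is not confined to macrophages, *Lyz2* being also a gene of neutrophils, and the part of other leukocytes in these rises was not tested.

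Of 15 Kupffer cell genes measured, 13 were higher and 0 lower by limma (1 lower at an unadjusted p under 0.05), with a median log2 fold change of 1.81. *Timd4*, a phosphatidylserine receptor carried by long-lived Kupffer cells, was at 9.98, 10.18 and 10.03 in CSF1-Fc livers and at 7.26 and 7.42 in PBS livers. Its rise of 2.72 (standard error 0.14, adjusted p = 0.000357) was the largest of the list, and *Spic*, a transcription factor of red cell-clearing macrophages, *Slc11a1*, a phagosomal metal transporter, and *Cd163*, the haptoglobin-haemoglobin receptor, followed at 2.71, 2.70 and 2.60. *Clec4f*, known as a Kupffer cell lectin of the mouse, rose by 1.94 (standard error 0.12, adjusted p = 0.00045). *C6* and *Id3*, which hepatocytes and other liver cells also express, did not pass, at -0.42 (adjusted p = 0.193) and 0.051 (adjusted p = 0.970).

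Genes shared by resident macrophages of several organs were higher in 9 of 12 and lower in 0 by limma (0 lower at an unadjusted p under 0.05), with a median log2 fold change of 1.65. *Trem2*, a lipid-sensing receptor, rose by 3.09 (standard error 0.19, adjusted p = 0.000447), and *C1qc* and *C1qa*, chains of the first complement component, by 2.38 and 2.38. *Cbr2*, a carbonyl reductase, was at 7.54, 6.42 and 5.89 in CSF1-Fc livers and at 3.48 and 3.34 in PBS livers. Its fold change of 3.21 (standard error 0.45, adjusted p = 0.00804) no longer passed once PBS replicate 1 (adjusted p = 0.0529) or PBS replicate 2 (adjusted p = 0.0673) was left out. The count was 5 with either PBS array left out and 6 with CSF1-Fc replicate 1 left out. *Gpnmb*, *Lyve1* and *Stab1* did not pass, at 1.01, 0.84 and 0.26, and the last of these is also a gene of sinusoidal endothelium.

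Among classical monocyte genes, 8 of 11 were higher and 0 lower by limma (0 lower at an unadjusted p under 0.05), with a median log2 fold change of 2.26. *Ccr2*, the chemokine receptor by which these cells leave the bone marrow, was at 8.26, 7.80 and 8.49 in CSF1-Fc livers and at 4.74 and 4.46 in PBS livers. It rose by 3.58 (standard error 0.23, adjusted p = 0.00045). *Ifitm6*, a myeloid member of the interferon-induced transmembrane family, rose by 4.37 (standard error 0.32, adjusted p = 0.0006), *Ms4a4c* by 3.83 and *S100a4*, a calcium-binding protein, by 2.95. *Fn1* and *Hp*, both abundant hepatocyte products, and *Cd177*, a neutrophil surface gene, did not pass, at -0.51, -0.12 and 0.26. The count was 5 with either PBS array or CSF1-Fc replicate 1 left out. *Ly6c1* and *Ly6c2* were not matched to a row in the annotation table and were not analysed here.

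Non-classical monocyte genes were higher in 10 of 13 and lower in 0 by limma (0 lower at an unadjusted p under 0.05), with a median log2 fold change of 1.45. *Cd300e*, an activating receptor of these cells, was at 10.04, 10.07 and 9.75 in CSF1-Fc livers and at 5.41 and 5.80 in PBS livers. Its rise of 4.35 (standard error 0.18, adjusted p = 0.000357) was near that of *Plac8* in size, and *Treml4*, *Itgal*, which encodes the integrin chain CD11a, and *Cx3cr1*, the fractalkine receptor, rose by 3.30, 3.09 and 2.63. *Cebpb*, *Spn* and *Itgax* did not pass, at 0.22, 0.35 and 0.44. The count was 6 with either PBS array left out. The differences between the medians of these lists were not tested.

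**Figure D4:**
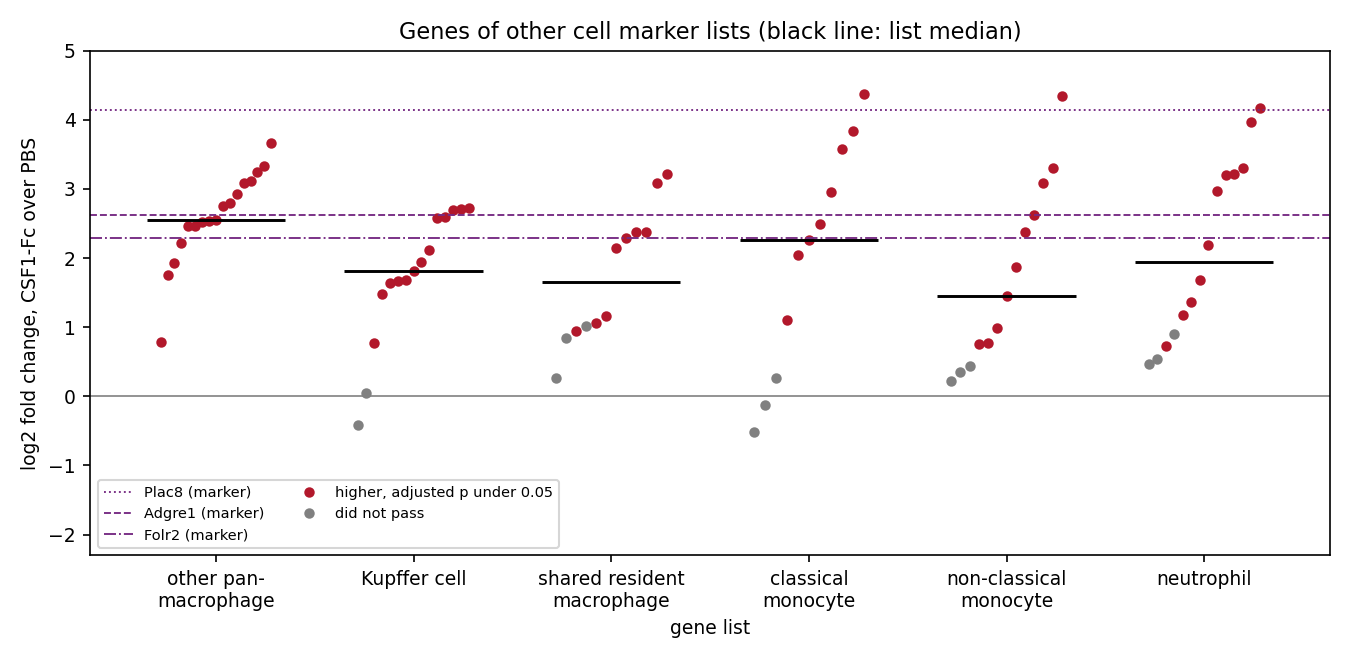
Log2 fold change, CSF1-Fc over PBS (vertical axis), of every measured gene in 6 marker lists (horizontal axis). Red points were higher at a limma adjusted p under 0.05, grey points did not pass, and the black line is the list median, 2.56 for other pan-macrophage, 1.81 for Kupffer cell, 1.65 for shared resident macrophage, 2.26 for classical monocyte, 1.45 for non-classical monocyte and 1.94 for neutrophil genes. Purple lines are the fold changes of *Plac8*, *Adgre1* and *Folr2*.

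Neutrophils share several of these genes, among them *Plac8*, *Lst1*, *Cd14* and, of the pan-macrophage list, *Lyz2*, and neutrophil genes rose as well. Of 14 measured, 11 were higher and 0 lower by limma (0 lower at an unadjusted p under 0.05), with a median log2 fold change of 1.94. The count was 7 with PBS replicate 2 or CSF1-Fc replicate 1 left out. *Retnlg* was at 8.92, 9.14 and 8.35 in CSF1-Fc livers and at 5.14 and 4.11 in PBS livers, a rise of 4.17 (standard error 0.36, adjusted p = 0.00101), and *S100a8* rose by 3.97 (standard error 0.47, adjusted p = 0.00387). The summed intensity of the list was 2790 to 3537 in CSF1-Fc livers and 419.1 to 2248 in PBS livers, the upper value being that of PBS replicate 1, where *Lcn2*, which hepatocytes can also make, was at 10.86 against 7.24 in replicate 2. The defining gene *Ly6g* was not named on a row of its own. The part of neutrophils in the rise of *Plac8*, *Lst1*, *Cd14* and the other pan-macrophage genes was not tested.

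Lists of other cell classes were set against the 8.34% of all genes that were higher and the 3.95% that were lower. Higher by limma were 2 of 10 dendritic cell genes, 2 of 8 B cell genes, 2 of 9 T cell genes and 2 of 7 NK cell genes, and 0 were lower (at an unadjusted p under 0.05, 0, 0, 1 and 0 were lower). *Cd79b*, a chain of the B cell receptor, rose by 1.89 (standard error 0.14, adjusted p = 0.00059), *Cd3g*, a chain of the T cell receptor complex, by 1.45 (standard error 0.15, adjusted p = 0.00222) and *Gzmb*, a granzyme of cytotoxic cells, by 2.27 (standard error 0.15, adjusted p = 0.000456). The other called B, T and NK cell genes were *Cd79a* at 1.58 (limma adjusted p = 0.00412), *Lat* at 0.89 (0.0218) and *Nkg7* at 1.95 (0.0372). The called dendritic cell genes were *Batf3* at 1.39 (limma adjusted p = 0.00437) and *Cd209a* at 0.76 (0.0163). The defining T cell genes *Cd3e* and *Cd3d* did not pass and were at or below 5.26 and 3.56 on every array. *Cd4*, the T cell gene lower at an unadjusted p under 0.05, was at -0.51 (limma adjusted p = 0.0763). The B cell genes *Pax5*, *Blk* and *Cr2* did not pass, at 0.083, -0.11 and -0.0012. Nor did the NK cell genes *Ncr1*, *Klrb1c*, *Eomes* and *Klre1*, at 0.43, 0.53, 0.30 and -0.125. Below a log2 intensity of 5 on every array were 4 dendritic, 3 B, 5 T and 4 NK cell genes. With 1 array left out the dendritic, T and NK counts fell to 1 (PBS replicate 1 or CSF1-Fc replicate 1), and to 0, 1 and 1 with PBS replicate 2 left out. None of 8 stellate cell genes, 5 cholangiocyte genes or 16 liver secreted protein genes passed the limma test in either direction (at an unadjusted p under 0.05, 0 were higher, and 3, 1 and 0 were lower). With CSF1-Fc replicate 3 left out, 2 stellate, 1 cholangiocyte and 2 endothelial genes were lower. Of 9 endothelial genes, *Cdh5*, a junction protein, was higher at 1.38 (adjusted p = 0.0737 and 0.0617 with PBS replicate 1 or 2 left out) and the sinusoidal lectin *Clec4g* lower at -0.74 (adjusted p = 0.108 and 0.16 with PBS replicate 1 or 2 left out, and 0.0598 with CSF1-Fc replicate 1 left out). The secreted protein genes, which stand for hepatocytes, had a median log2 fold change of -0.11.

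Each marker was then set beside its own family or partners, without a test of the difference between their fold changes. Of 14 MS4A genes other than *Ms4a7*, 7 were higher and 0 lower by limma (0 lower at an unadjusted p under 0.05). *Ms4a6d* was at 9.92, 9.92 and 9.46 in CSF1-Fc livers and at 6.14 and 5.69 in PBS livers. It rose by 3.85 (standard error 0.21, adjusted p = 0.000392), and *Ms4a4c*, *Ms4a6c*, *Ms4a6b* and *Ms4a8a* rose by 3.83, 3.67, 3.62 and 3.52, beside the 0.52 of *Ms4a7*. *Ms4a1*, which encodes the B cell antigen CD20, and *Ms4a4b*, a gene of T cells, rose by 1.15 and 1.04, calls that ended with PBS replicate 1 left out for *Ms4a1* (adjusted p = 0.0544) and with PBS replicate 2 left out for *Ms4a4b* (adjusted p = 0.0604). The other 7 did not pass, and 6 of the 14 were below a log2 intensity of 5 on every array.

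**Figure D5:**
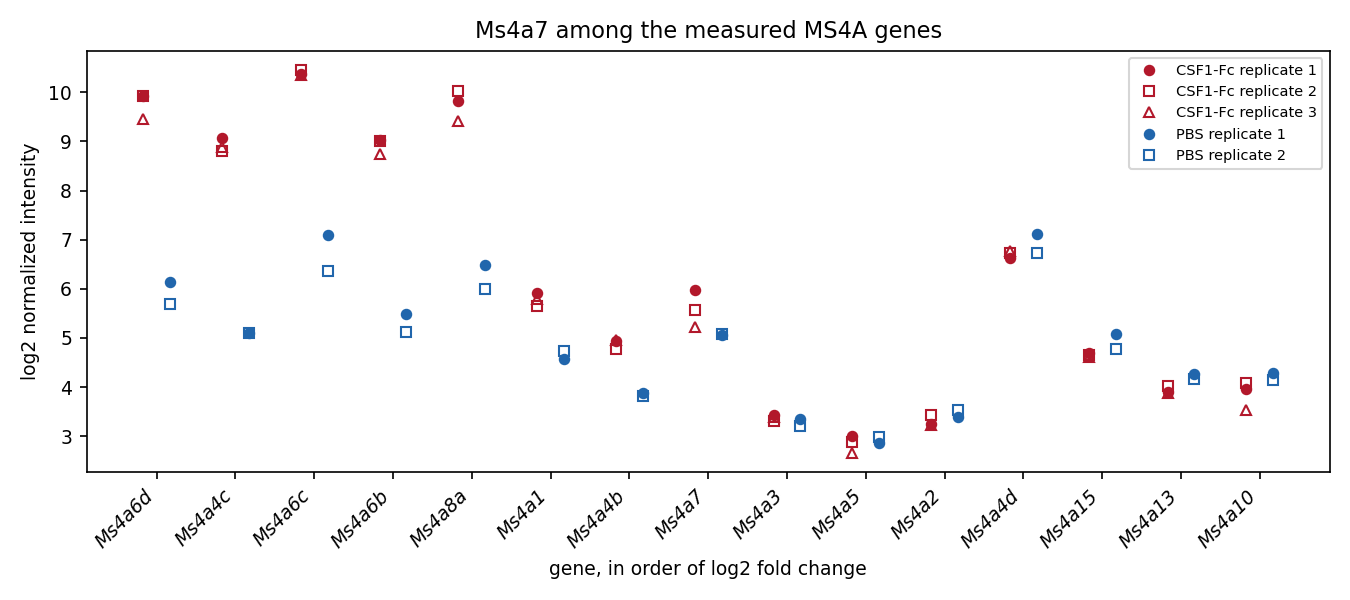
Log2 normalized intensity (vertical axis) of *Ms4a7* and the 14 other measured MS4A genes (horizontal axis), ordered by fold change. Red symbols are CSF1-Fc livers and blue symbols PBS livers. The 5 genes at the left rose by 3.52 to 3.85 and *Ms4a7* by 0.52.

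*Adgre4* and *Adgre5*, the other EGF-TM7 receptors measured, both rose. *Adgre4* was at 9.58, 9.47 and 9.85 in CSF1-Fc livers and at 7.28 and 7.24 in PBS livers, a rise of 2.37 (standard error 0.15, adjusted p = 0.00045). *Adgre5*, which encodes the more widely expressed CD97, rose by 2.06 (standard error 0.16, adjusted p = 0.000773). Among 8 relatives of *Lyz1*, *Cd68* and *Mpeg1*, 1 was higher by limma, *Lyz2*, and 0 were lower (2 higher and 0 lower at an unadjusted p under 0.05), against 8.34% and 3.95% of all genes. Of these 8, 5 were below a log2 intensity of 5 on every array, *Prf1* among them. *Lamp1* and *Lamp2*, the lysosome membrane proteins of every cell, were at 0.036 and -0.28 beside the 2.87 of *Cd68*, and *Prf1*, the perforin of cytotoxic cells, at 0.41 (adjusted p = 0.127). None of the 4 folate genes passed the limma test, and 0 were higher and 1 lower at an unadjusted p under 0.05. That gene was *Slc46a1*, the intestinal and hepatic folate transporter, at -0.57 (adjusted p = 0.0682), while *Folr1*, the epithelial folate receptor, was at 0.18. *Folr1* was 1 of 2 folate genes below a log2 intensity of 5 on every array.

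Of 10 partners of CD14 in lipopolysaccharide sensing, 6 were higher and 0 lower by limma (2 lower at an unadjusted p under 0.05). *Tlr4*, the signalling receptor, was at 7.54, 7.97 and 7.81 in CSF1-Fc livers and at 5.15 and 5.21 in PBS livers. It rose by 2.60 (standard error 0.16, adjusted p = 0.00045), beside 1.09 for *Cd14* itself. *Cd180* and its partner *Ly86*, a related receptor pair of B cells and myeloid cells, rose by 3.16 and 2.95, the adaptor *Ticam2* by 1.89 and *Tlr2* by 1.68. The adaptor *Myd88*, at 0.78, passed by a small margin (adjusted p = 0.0448), and the call ended whichever of the 5 arrays was left out, with adjusted p between 0.0556 (PBS replicate 1) and 0.275 (PBS replicate 2). *Lbp*, the plasma protein that delivers lipopolysaccharide to CD14 and is made by hepatocytes, was at -0.61 (adjusted p = 0.16), and *Ly96*, the MD-2 subunit, at 1.01 (adjusted p = 0.306) with treated values between 8.77 and 10.39.

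*Aif1* and *Lst1* lie next to each other in the class III region of the major histocompatibility complex on mouse chromosome 17, with only the pseudogene *Ncr3-ps* listed between them in RefSeq. Of 10 class III genes measured around them, *Tnf* alone was higher by limma and 0 were lower (2 higher and 0 lower at an unadjusted p under 0.05), against 8.34% and 3.95% of all genes. The 10 genes had a median log2 fold change of -0.076, and their difference from *Aif1* and *Lst1* was not tested. *Tnf*, which encodes a cytokine of activated macrophages, was at 6.64, 6.32 and 6.01 in CSF1-Fc livers and at 5.25 and 4.79 in PBS livers. Its fold change of 1.30 (standard error 0.23, adjusted p = 0.0203) did not pass with PBS replicate 1 (adjusted p = 0.0515), PBS replicate 2 (adjusted p = 0.152) or CSF1-Fc replicate 1 (adjusted p = 0.0643) left out. *Ltb*, the other gene higher at an unadjusted p under 0.05, and *Lta* were at 0.40 (limma adjusted p = 0.197) and -0.12, and the ubiquitous *Bag6* and *Ddx39b* at -0.13 and 0.22.

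For each marker, the 2 genes with the most similar profile over the 5 arrays were found by the root mean square difference of centred log2 values, a description with no test. *Cd68* lay nearest to *Nrm* and *Ly86*, at 0.040 and 0.058, and *Adgre1* to *Cfp*, which encodes the complement factor properdin, and *Rassf4*, at 0.050 and 0.057. *Folr2* lay nearest to *Plp2* and *Csf2rb2*, at 0.038 and 0.052. *Plac8* had no such close match, since its nearest genes were *AB124611* at 0.18 and the neutrophil gene *Retnlg* at 0.20. *Lst1* was likewise alone, with *Cenpm*, a centromere protein gene, at 0.19 and *BC028528* at 0.23. Of the rest, *Aif1* was nearest to *Tcf19* and *Arhgdib*, *Mpeg1* to *Rab8b* and *Cd80*, *Lyz1* to *BC147527* and *Jdp2*, *Cd14* to *Cdc45* and *Ctsg*, and *Ms4a7* to *Galnt9* and *Pagr1a*.

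The promoters of the markers were examined because the genes rose together by such unequal amounts. RefSeq promoters, 250 bases before to 50 after a start, were searched for 7 of the 10. *Cd14* was left out of the search, and no promoter was listed for *Adgre1* or *Lst1*. The motif GAGGAA, the core bound by PU.1 and other ETS factors, occurs on either strand in 28.3% of 32851 promoters and was in the promoter listed first for 4 of the 7, *Cd68*, *Aif1*, *Plac8* and *Ms4a7*. The motif TTGCNNAA, of the kind bound by C/EBP factors, occurs in 10.8% and was in 2, *Cd68* and *Lyz1*. TATAAA occurs in 13.6% and was in 0. A match is a description of letters, and no matches of different motifs overlap in the promoters printed. The markers with the 2 largest fold changes and the one with the smallest are printed here 5′ to 3′ on the strand of the gene, from RefSeq GRCm38.p6, with matches to GAGGAA or TTGCNNAA on either strand in capitals.
Plac8, chr5:100572156-100572455, minus strand: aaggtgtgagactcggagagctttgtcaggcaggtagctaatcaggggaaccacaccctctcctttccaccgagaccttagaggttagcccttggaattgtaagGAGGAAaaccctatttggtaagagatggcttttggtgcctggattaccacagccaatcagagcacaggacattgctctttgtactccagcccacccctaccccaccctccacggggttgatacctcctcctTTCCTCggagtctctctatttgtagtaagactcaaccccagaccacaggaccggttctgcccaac
Cd68, chr11:69666121-69666420, minus strand: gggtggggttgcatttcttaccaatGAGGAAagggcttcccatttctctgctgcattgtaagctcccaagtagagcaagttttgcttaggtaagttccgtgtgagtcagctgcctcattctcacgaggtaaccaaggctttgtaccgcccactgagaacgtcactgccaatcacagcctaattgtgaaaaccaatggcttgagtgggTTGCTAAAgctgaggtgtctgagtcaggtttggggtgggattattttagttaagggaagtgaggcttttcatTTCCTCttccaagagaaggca
Ms4a7, chr19:11336097-11336396, minus strand: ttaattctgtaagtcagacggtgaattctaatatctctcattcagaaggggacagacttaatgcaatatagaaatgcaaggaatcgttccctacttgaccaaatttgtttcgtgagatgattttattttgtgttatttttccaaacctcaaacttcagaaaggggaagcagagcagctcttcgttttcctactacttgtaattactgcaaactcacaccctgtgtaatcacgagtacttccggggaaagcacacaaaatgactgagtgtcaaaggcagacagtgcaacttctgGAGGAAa
In *Plac8* the matches begin 146 and 15 bases before the start, and in *Cd68* those to GAGGAA begin 225 bases before it and at transcribed base 30, and that to TTGCNNAA 43 bases before it. In *Ms4a7* the match begins at transcribed base 44. GAGGAA was present in the first listed promoters of *Plac8*, *Cd68*, *Aif1* and *Ms4a7*, with log2 fold changes of 4.14, 2.87, 2.51 and 0.52. It was absent from those of *Folr2*, *Mpeg1* and *Lyz1*, at 2.29, 1.94 and 1.30. Second promoters are listed for *Plac8*, *Folr2* and *Ms4a7*, and none of them holds GAGGAA. That of *Plac8* holds a match to TTGCNNAA that begins 12 bases before the start. Whether a motif goes with the size of the rise was not tested.

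The lysozyme pair is shown because *Lyz1* and *Lyz2* lie side by side on chromosome 10 with no gene listed between them, and their rows rose by 1.30 and 1.75. The 2 promoters were equal at 201 of 300 positions, or 67.0%, compared base by base without gaps. Capitals again mark TTGCNNAA or its reverse complement, which was found in *Lyz1* 209 bases before the start.
Lyz1, chr10:117292819-117293118, minus strand: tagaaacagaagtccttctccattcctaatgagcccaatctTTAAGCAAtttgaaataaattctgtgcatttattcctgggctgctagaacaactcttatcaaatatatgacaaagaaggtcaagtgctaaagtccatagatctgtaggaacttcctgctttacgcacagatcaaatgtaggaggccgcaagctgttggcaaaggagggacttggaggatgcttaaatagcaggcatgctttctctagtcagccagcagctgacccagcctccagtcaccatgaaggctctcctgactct
Lyz2, chr10:117282223-117282522, minus strand: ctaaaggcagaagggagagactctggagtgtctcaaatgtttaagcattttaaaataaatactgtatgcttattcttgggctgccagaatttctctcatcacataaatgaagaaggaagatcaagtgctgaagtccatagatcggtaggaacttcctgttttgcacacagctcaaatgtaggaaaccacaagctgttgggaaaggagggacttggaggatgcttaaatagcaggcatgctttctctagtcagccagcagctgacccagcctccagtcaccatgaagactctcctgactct
In the 100 bases around the start, 50 on each side, 99 were equal.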

How the data were processed

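RNA of 3 CSF1-Fc and 2 PBS livers was hybridized to 1 array per mouse. The deposited values are the authors' normalized intensity per transcript row, on a linear scale, and the sources used here do not give their background correction, normalization or summarisation. The methods name Partek Genomics Suite, and the submitters' processing notes Expression Console 1.1. For extraction the methods give RNA Bee and the labels Trizol. No depth applies to arrays, and p-values cover only the spread between these mice.

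Log2 values of 35556 rows, with no filter or pseudocount, entered limma 3.58.1 (R 4.3.3, lmFit with a mean per group, then eBayes), and p-values were adjusted by Benjamini-Hochberg across rows, with 0.05 as the threshold. Rows carrying 1 symbol in the platform annotation, 21218, gave 18820 genes, each represented by its brightest row. A further 1881 rows had several symbols and 12457 were unnamed here. The members and the 24 lists were chosen with earlier results of these data known. The lists were 3 groups of members and 21 others: pan-macrophage, Kupffer cell, shared resident macrophage, classical and non-classical monocyte genes, families and partners of the members (MS4A, EGF-TM7, lysozyme with LAMP and perforin-like, folate, lipopolysaccharide sensing), class III neighbours, neutrophil, dendritic, B, T, NK, endothelial, stellate, cholangiocyte and Paneth cell genes and liver secreted proteins. By rule, all members were named, with the 2 nearest genes of each member. Genes of the macrophage, monocyte, family and neighbour lists were named by preference where they were the 4 largest called changes or did not pass. For other lists these were the 2 largest called changes, with dim defining genes. *Csf1r*, *Clec4f*, *Lcn2* and *Cd4* were singled out after their values were seen.

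Alternatives tried were quantile normalization, 2 centrings (array median, liver secreted proteins), filters on rows, the mean over the rows of a gene, a variance trend, no moderation, array weights (statmod 1.5.0), a pseudocount of 16, the replicate block, thresholds of 0.01 and 0.10, each array left out and, added later, subtraction of the 25th percentile. In data simulated for this comparison over 35556 rows, limma recovered 5 of 67 rows with a change of 0.7 log2 units. It recovered 33 of 67 with a change of 1 and 65 of 66 with a change of 2, and made 5 false calls. Far fewer rows were changed there than were called in the data, 2052 higher and 1133 lower. The Benjamini-Hochberg cut-off was therefore stricter in the simulation, and the shares recovered do not give the sensitivity of the fit reported. Motifs were counted as exact matches on both strands of RefSeq promoters (GRCm38.p6).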

Additional observations from a re-analysis of the deposited data

How the results depend on the processing

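Over 18 planned settings each marker kept its direction, and the median of the 10 fold changes stayed between 2.05 and 2.54. The thresholds, variance settings, row filters and mean over rows cannot move a marker's fold change, and all left this median at 2.29. The markers were also chosen on this contrast, so their kept direction is a description and no test. The rows called higher, 2052 in the fit reported, were 550 without variance moderation, 3416 with array weights, 1255 at an adjusted p under 0.01 and 1079 to 2053 with an array left out. Those called lower, 1133, were 746 centred on liver secreted proteins, 1772 on rows with 1 symbol, 127 without moderation, 3805 with array weights, 177 at an adjusted p under 0.01, 2205 under 0.10, 484 with the 25th percentile subtracted and 134 to 1768 with an array left out. Without moderation, other pan-macrophage genes higher were 8, Kupffer cell 7, shared resident 4, classical monocyte 2 and non-classical monocyte 3. At an adjusted p under 0.01 the monocyte counts were 5 (classical) and 6 (non-classical), and with the percentile subtracted the classical count was 4. With an array left out, shared resident genes higher were 5 to 10, classical 5 to 8 and non-classical 6 to 10, and *Folr2* minus *Adgre1* ranged from -0.60 to -0.070. The cause was not tested. With the replicate number as a block, 1577 rows were higher and 927 lower, the median of the markers was 2.46, and *Plac8* exceeded *Folr2* by 1.96. These 2 marker values equal those with CSF1-Fc replicate 3, which has no PBS array of its number, left out. Same-numbered arrays deviated from their group means with correlations of -0.0725 and -0.249 over rows. The deviations of 2 PBS arrays from their mean mirror each other, so these correlations cannot decide whether the numbers pair the mice. The fit reported treats the numbers as names only. Array weights gave CSF1-Fc replicate 1 a weight of 4.19 against 0.47 and 0.43 for replicates 2 and 3.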
